A study of Mus musculus with 24 samples.

Results

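At day 7, and after exposure to forskolin, C2C12 cells that express the transcription factor NFIA (nuclear factor I A) were compared with control C2C12 cells. The 3 libraries whose titles name NFIA-expressing cells at day 7 with forskolin were set against the 3 libraries whose titles name control cells in the same state, 6 of the 24 libraries of the series. C2C12 is a mouse myoblast line that fuses into muscle fibres in culture, and the labels call the cells of both groups myoblasts. Both groups received 10 µM forskolin for 4 h before harvest, so the control cells are treated cells and not an untreated baseline. The same 2 kinds of cell at day 7 without forskolin, 3 libraries each, served as reference. The vector, the promoter that drives NFIA, the culture medium, what day 7 is counted from, and whether a line is 1 clone or a pool are not stated in the labels. Nor do the labels say whether the 3 libraries of a group came from separate cultures, so the p-values measure the spread between these libraries, which may be technical. Values are FPKM, fragments relative to transcript length and library total, so levels can be set beside each other between genes.

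Forskolin activates the membrane-bound adenylyl cyclases, which make cyclic AMP (cAMP). In the textbook pathway cAMP binds the regulatory subunits of protein kinase A (PKA), and the catalytic subunits set free phosphorylate the transcription factor CREB, lipases and coat proteins of the lipid droplet. CREB acts through the cAMP response element (CRE) in promoters of immediate-early genes, with CRTC coactivators that salt-inducible kinases hold back, and phosphodiesterases end the signal by breaking down cAMP. In brown fat cells this is the route by which noradrenaline, through beta-adrenergic receptors, starts lipolysis and induces the uncoupling protein Ucp1 and the coactivator Ppargc1a. NFIA is known as a regulator of the brown fat gene program, and the series title asks about that program, so the comparison shows which genes differed when cells with and without NFIA both received the cAMP signal.

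Of 37041 genes listed, 13496 had at least 1 FPKM in at least 3 of the 6 libraries and were tested. A gene under 1 FPKM in every library of 1 group passed only through the other group, so the filter set its direction. The list counts and the genes named below include such genes, and only some are marked. Differences are given as NFIA minus control on the log2(FPKM + 1) scale with their SE, which understates the change of genes with low FPKM. A gene was called higher or lower at an adjusted p under 0.05 (limma, Benjamini-Hochberg over all genes tested). Under forskolin 8480 genes were called, 62.8% of those tested, with 3988 higher in NFIA cells (29.5%) and 4492 lower (33.3%). The median difference over all genes was -0.03. With so large a share of genes called, a single call says little by itself, and the counts of each gene group below are read against these percentages. Of the called genes, 8471 had the same sign between the 2 replicate 1 libraries as between replicates 2 and 3. The genes were called with these same libraries, so this count does not test how well the replicates agree.

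The FPKM of all genes summed to 834959 to 1575522 per library, and 17304 to 19935 genes were above 0. The sums were 834959, 1238931 and 1191079 in control replicates 1 to 3 and 941965, 1575522 and 1478370 in NFIA replicates 1 to 3. Nuclear protein-coding genes summed to 422146 to 518113 in control and 537970 to 639662 in NFIA libraries. The main fit did not rescale the libraries for this. No read totals were used here, and the depth of each library is therefore unknown. Spearman correlations over the tested genes were 0.976 to 0.992 within the control group, 0.968 to 0.982 within the NFIA group and 0.797 to 0.815 between groups. In the column headers, replicate 1 of each group carries an earlier date (20150225) than replicates 2 and 3 (20160908). A short RNA entry, mmu-mir-703, was listed at 71371 FPKM in control replicate 1 and 29085 in NFIA replicate 1. The other 4 forskolin libraries had 267768 to 374440. Replicate 1 at day 7 without forskolin, of the same earlier date, had 298151 in control and 393312 in NFIA cells. The headers of the 2 replicate 1 forskolin libraries also lack an R1 ending that the other C2C12 headers carry. What this means for the interactions was not tested. The earlier date holds 1 library per group and gives no test of its own. With the libraries of the later date alone, 9813 genes were called. An exact 0 in these FPKM values may be a failed estimate: of 13 mitochondrial mRNAs, which every cell uses, 5 were listed at 0 in NFIA replicate 1 and at most 1 in each of the other 5 libraries. Among markers of other cell types, Ptprc and Emr1 (immune), Tie1 (endothelial) and Hbb-b1 (erythroid) were listed at 0 in all 6 libraries. The 4 erythroid markers summed to 0.54 to 0.63 FPKM in control and 2.60 to 3.44 in NFIA libraries, with Hba-a1 called higher (1.25 ± 0.26), and the 7 endothelial markers to 0.90 to 1.24 and 1.42 to 1.58. The 6 epithelial markers summed to 1.11 to 1.67 FPKM in control and 0.18 to 0.53 in NFIA libraries. The 9 immune markers summed to 6.13 to 9.18 FPKM in control and 21.9 to 29.5 in NFIA libraries, of which Cd68, a lysosomal protein, made up 1.22 to 2.22 and 17.8 to 24.3. The 7 neuron and glia markers summed to 18.4 to 25.5 in control and 4.19 to 8.47 in NFIA libraries, and the 8 smooth muscle markers to 1157 to 1411 and 292 to 358. The part of such cells in the results was not tested.

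**Figure D1:**
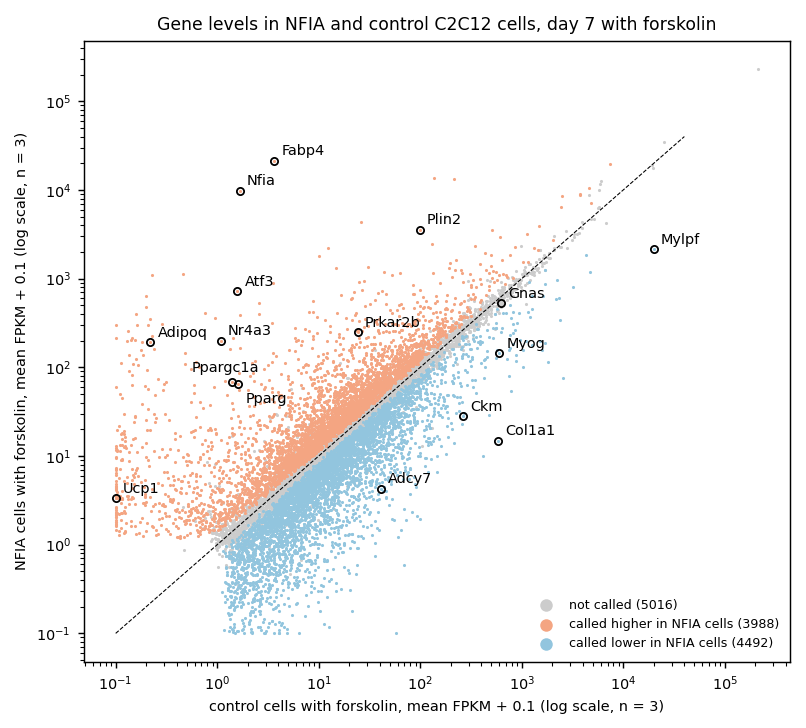
Mean FPKM + 0.1 of the 13496 tested genes in control (x axis) and NFIA cells (y axis) at day 7 with forskolin, both on log scales, n = 3 libraries per group; orange points were called higher in NFIA cells (3988), blue points lower (4492), and grey points were not called. The dashed line marks equal levels; Nfia and Fabp4 lie far above it, Col1a1, Ckm and Adcy7 below it, and Gnas near it.

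Nfia checks the labels. It was listed at 1.82, 1.58 and 1.32 FPKM in the control libraries and at 9876, 10448 and 9232 in the NFIA libraries (difference 11.91 ± 0.20, adjusted p = 3.7e-16). Its gene (ENSMUSG00000028565.11) spans chromosome 4, 97234824 to 97868605, in mm9. The mean in NFIA cells was 9852 ± 608 FPKM (SD, n = 3) with forskolin and 3343 without, and the difference from control was larger with forskolin (interaction 1.37 ± 0.28, adjusted p = 0.0026), a call that was lost with a pseudocount of 0.1 (adjusted p = 0.127) and with quantile normalization (adjusted p = 0.0658). The NFIA libraries with and without the compound thus differed in the level of Nfia itself. Of the other 3 NFI genes, Nfix was lower in NFIA cells (43.9 ± 4.44 FPKM in control, 25.8 ± 2.04 in NFIA cells) and so was Nfic (48.0 ± 1.16 against 21.4 ± 1.91). Nfib was not called, at 5.10 ± 1.40 and 5.74 ± 0.56 FPKM, but was called higher with the libraries of the later date alone (adjusted p = 0.0339).

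The windows around the start sites of 5 genes are shown because immediate-early, NR4A and thermogenic genes are the known targets of cAMP on which the results below turn. The sequences are RefSeq's on GRCm38.p6, from 250 bases before to 50 bases after a start site, 5′ to 3′ on the strand of the gene. Capitals mark the full CRE (TGACGTCA, which reads the same on both strands) in Btg2, Maff and Dio2. In Nr4a1 and Nr4a3 they mark its 5-base core on either strand (TGACG or CGTCA). Btg2, Maff and Dio2 are all the members called higher, among the lists of immediate-early, NR4A, CREB, phosphodiesterase and thermogenic genes, that hold a full CRE in a window; 43 of 56 such members had a window. Nr4a1 and Nr4a3 were added after their values had been seen.
Btg2 (chr1:134079106-134079405, minus strand): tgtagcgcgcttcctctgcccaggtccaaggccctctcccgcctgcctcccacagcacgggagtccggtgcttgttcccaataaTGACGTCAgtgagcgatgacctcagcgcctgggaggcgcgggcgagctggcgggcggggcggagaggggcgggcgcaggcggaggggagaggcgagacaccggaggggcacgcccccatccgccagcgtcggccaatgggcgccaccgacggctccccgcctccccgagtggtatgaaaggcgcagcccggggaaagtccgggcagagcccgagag
Maff (chr15:79347270-79347569, plus strand): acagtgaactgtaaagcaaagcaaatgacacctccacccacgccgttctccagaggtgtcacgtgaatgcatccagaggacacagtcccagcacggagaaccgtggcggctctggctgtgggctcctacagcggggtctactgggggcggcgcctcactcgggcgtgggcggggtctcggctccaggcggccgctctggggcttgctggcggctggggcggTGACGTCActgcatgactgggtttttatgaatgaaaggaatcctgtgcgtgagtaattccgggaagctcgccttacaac
Dio2 (chr12:90738989-90739288, minus strand): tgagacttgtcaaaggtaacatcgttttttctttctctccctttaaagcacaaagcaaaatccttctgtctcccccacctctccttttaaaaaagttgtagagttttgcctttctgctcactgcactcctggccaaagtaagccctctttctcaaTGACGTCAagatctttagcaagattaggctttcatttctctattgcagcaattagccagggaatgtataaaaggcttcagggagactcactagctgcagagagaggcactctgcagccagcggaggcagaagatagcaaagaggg
Nr4a1 (chr15:101266596-101266895, plus strand): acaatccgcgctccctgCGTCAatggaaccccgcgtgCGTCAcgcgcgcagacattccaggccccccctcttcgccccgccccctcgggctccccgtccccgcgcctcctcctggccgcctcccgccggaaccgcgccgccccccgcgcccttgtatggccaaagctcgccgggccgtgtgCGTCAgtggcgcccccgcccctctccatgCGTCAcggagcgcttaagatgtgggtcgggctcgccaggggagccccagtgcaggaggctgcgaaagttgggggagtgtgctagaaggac
Nr4a3 (chr4:48045055-48045354, plus strand): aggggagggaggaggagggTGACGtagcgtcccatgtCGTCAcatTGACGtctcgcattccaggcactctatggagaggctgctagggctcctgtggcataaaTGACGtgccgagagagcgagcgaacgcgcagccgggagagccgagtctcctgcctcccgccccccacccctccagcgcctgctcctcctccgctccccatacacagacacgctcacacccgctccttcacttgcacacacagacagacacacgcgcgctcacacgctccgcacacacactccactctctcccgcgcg

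The full CRE begins 166 bases before the start site in Btg2, 29 in Maff and 95 in Dio2. The window of Nr4a1 holds the core CGTCA at 233, 213, 69 and 40 bases before the start, and that of Nr4a3 holds a core at 231, 213, 205 and 147 bases. A window was found for 8439 of the tested genes by symbol, and some genes have several windows. At least 1 full CRE was present in 3.74% of these genes, in 4.52% of those called higher, 2.76% of those called lower and 4.08% of those not called. Among genes whose interaction with forskolin was called, the share was 5.64% of 957 genes with a positive interaction and 2.79% of 895 with a negative one. The core was present in 36.0% of tested genes and in 18 of 28 immediate-early genes with a window. Other lists ranged widely, with 14 of 22 heat shock and 6 of 33 sarcomere genes, so a high share was not particular to immediate-early genes. A full NFI site (the palindrome of TTGGC and GCCAA with any 5 bases between) was found in 2 of the 8439 genes. Both were among the 3011 called lower, and none of the 2610 called higher held it. These shares describe letters in a short window and carry no test.

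Genes of the fat cell program were among the most different, and most members of each of their lists were called higher in NFIA cells. Pparg, the nuclear receptor that directs fat cell formation, was at 1.59, 1.43 and 1.54 FPKM in the control libraries and at 64.0, 67.0 and 65.4 in the NFIA libraries (4.72 ± 0.09, adjusted p = 9.9e-16). Cebpa, its partner, was at 3.65, 5.24 and 5.82 against 55.8, 83.8 and 83.4 (3.67 ± 0.24). Both genes had NFIA values far above every control library. NFIA libraries all above control libraries, at any distance, were seen in 31.5% of all genes tested. Of 15 tested adipogenic factors 10 were called higher and 4 lower, with a median difference of 1.46. Without control replicate 3 the number called lower was 2. Klf15, Klf4 and Nr1h3 (the oxysterol receptor LXR alpha) had differences of 4.75, 4.70 and 4.47. Klf5, an early adipogenic factor, was lower (14.8 ± 1.74 against 4.88 ± 0.21 FPKM), and Stat5a, at 12.1 ± 0.73 and 13.2 ± 0.58, was not called. In bulk RNA a gene's level cannot tell a larger share of fat-like cells from more of that RNA in each cell, here and below.

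Lipid droplet and lipolysis genes, on which PKA acts in fat cells, were called higher in 11 of 12 and 7 of 7 tested members. Plin1, the droplet coat protein that PKA phosphorylates, was at 0.01, 0.03 and 0.06 FPKM in control and 216, 283 and 276 in NFIA libraries. Plin2, the coat protein of most cell types, was at 86.4, 105 and 104 against 2985, 3888 and 3860 (5.17 ± 0.12, adjusted p = 1.7e-14), with a larger difference than without forskolin (interaction 1.25 ± 0.17). Cidec and Cidea, which enlarge droplets, had means of 301 ± 37.4 and 56.3 ± 6.57 FPKM in NFIA cells and of 0.11 in control cells. Plin1, Cidec and Cidea passed the expression filter only through the NFIA libraries, so the filter set their direction. Plin3 was the 1 droplet gene called lower (-1.31 ± 0.14).

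The lipases that release fatty acids in sequence were all higher. Pnpla2, which takes the leading step, had a mean of 22.3 ± 4.74 FPKM in control and 709 ± 69.0 in NFIA cells. Lipe, which PKA activates, had 2.59 ± 0.47 against 64.4 ± 9.27, and Mgll, which takes the last step, 1.56 ± 0.14 against 86.1 ± 10.0. Abhd5, the activator of Pnpla2, differed by 3.73 ± 0.09 with forskolin and by 3.15 without (interaction 0.58 ± 0.12, adjusted p = 0.0036; 0.11 with quantile normalization). G0s2, the inhibitor of Pnpla2, went the other way: its difference was 1.67 ± 0.33 with forskolin and 3.91 without (interaction -2.23 ± 0.47, adjusted p = 0.0032). The mean of G0s2 in NFIA cells was 151 FPKM with and 771 without the compound, and that of control cells 47.0 and 50.1.

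Among the receptors through which noradrenaline reaches this pathway, Adrb1 and Adrb3, the latter typical of mature fat cells, stayed at or under 0.21 and 0.20 FPKM in all 6 libraries and were not tested.

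**Figure D2:**
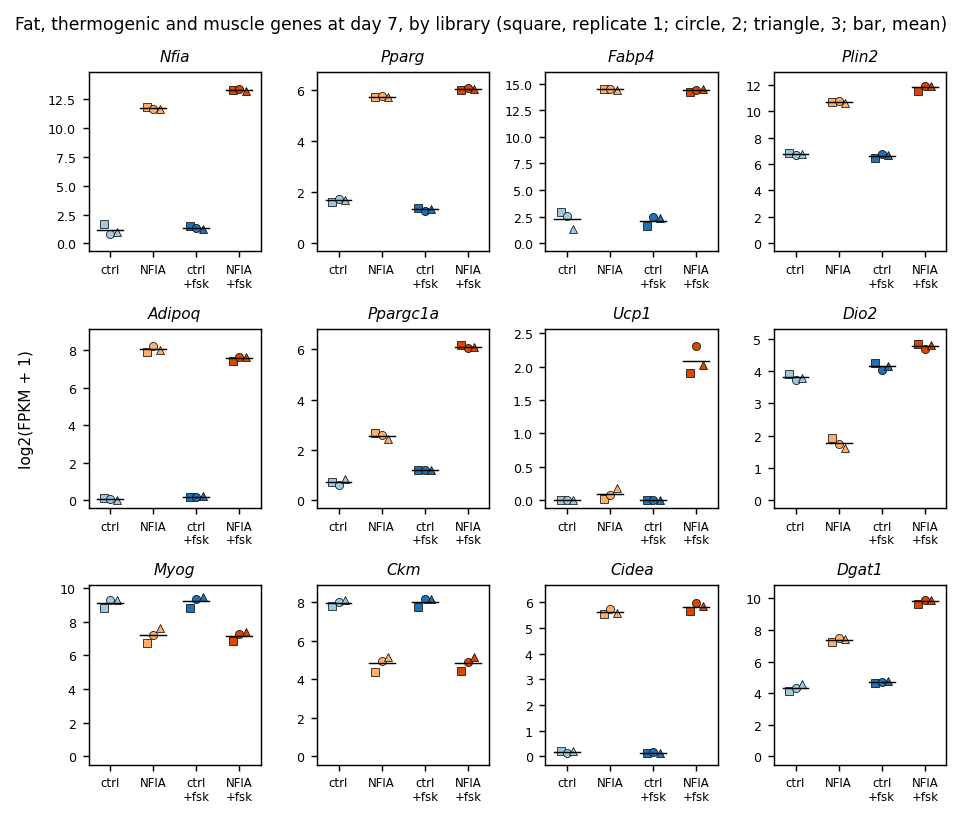
log2(FPKM + 1) of 12 genes in every library of the 4 day 7 groups (control and NFIA cells without and with forskolin, +fsk); each symbol is 1 library (square, replicate 1; circle, 2; triangle, 3) and the bar is the mean of 3. Pparg and Fabp4 are high in NFIA cells of either treatment, Ppargc1a, Ucp1 and Dio2 are highest in NFIA cells with forskolin, and Myog and Ckm are lower in NFIA cells of either treatment.

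Fatty acid uptake, triglyceride synthesis and oxidation genes followed the same direction. Fabp4, the fatty acid carrier of fat cells, was at 2.13, 4.44 and 4.11 FPKM in control and 19291, 22152 and 22340 in NFIA libraries (12.23 ± 0.38), the largest difference of any gene tested. Lpl, which frees fatty acids from lipoproteins, was at 131 ± 7.75 against 2470 ± 29.4 FPKM. Of 21 tested genes of lipogenesis and triglyceride synthesis 19 were called higher, with a median of 3.32. Dgat1, which with Dgat2 adds the last acyl chain, had means of 25.1 ± 1.22 and 919 ± 90.0 FPKM (5.14 ± 0.12), and its difference was larger with forskolin than without (interaction 2.10 ± 0.17). Pck1, which supplies glycerol phosphate for re-esterification, had means of 0.01 and 112 FPKM with forskolin and of 0.01 and 32.7 without (interaction 1.73 ± 0.10, adjusted p = 2.1e-08). Pck1 passed the expression filter only through the NFIA libraries, so the filter set its direction. Srebf1, Fasn and Pnpla3, genes of new fat synthesis, were called higher too, but with smaller differences than without forskolin (interactions -1.44, -0.89 and -1.61). Scd1, a desaturase, was listed at 0 in NFIA replicate 1 and at 7609 and 7747 FPKM in the other 2 NFIA libraries, with 166 to 188 in control libraries. In that library 5 of 13 mitochondrial mRNAs were also listed at 0, so the 0 of Scd1 may be a failed estimate. With it Scd1 was not called, and with it treated as missing the difference was 5.46.

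All 23 tested genes of fatty acid oxidation were called higher, with a median of 0.97, beside 29.5% of all genes. Cpt1a, which admits fatty acids to mitochondria, was at 17.2, 17.1 and 17.2 FPKM in control and 35.3, 35.2 and 33.3 in NFIA libraries (0.97 ± 0.06). Pdk4, which turns pyruvate away from oxidation, differed by 3.82 ± 0.08 with forskolin and 2.41 without (interaction 1.42 ± 0.11). Nuclear genes of oxidative phosphorylation differed less, with a median of 0.39: 18 of 56 were called higher and 1 lower. This was 32.1% higher, near the 29.5% of all genes, and 1.8% lower, beside 33.3%. Quantile normalization of the libraries changed that split to 11 higher and 7 lower, and left 21 of the 23 fatty acid oxidation genes called higher. Without control replicate 1, NFIA replicate 2 or NFIA replicate 3 the oxidative phosphorylation genes called higher numbered 9, 10 and 10. With the replicate number added to the model as a block, termed the replicate block from here on, 37 were called higher and 3 lower. Cycs, cytochrome c, was at 43.7 ± 8.38 against 160 ± 26.3 FPKM. The gene called lower, Cox6a2, the muscle and heart form of a cytochrome c oxidase subunit, was at 112 ± 31.8 against 9.46 ± 3.18.

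Secreted products of fat cells were called higher in 12 of 15 tested members. Adipoq (adiponectin) was at 0.10, 0.12 and 0.14 FPKM in control and 172, 203 and 201 in NFIA libraries. Rbp4, Lcn2, Retn and Angptl4 had means of 1131, 401, 108 and 395 FPKM in NFIA cells and of 0.36, 0.06, 0.05 and 2.46 in control cells. Adipoq, Lcn2 and Retn passed the expression filter only through the NFIA libraries, so the filter set their direction. Lep (leptin) did not exceed 0.05 FPKM in any of the 6. Fgf21, a metabolic hormone, was at 52.1 ± 13.5 against 85.6 ± 18 FPKM with forskolin and 66.5 against 16.8 without (interaction 2.66 ± 0.32). The call of Fgf21 under forskolin was lost without control replicate 1 (adjusted p = 0.0711) and without NFIA replicate 3 (adjusted p = 0.0547). Apln (apelin) turned in the opposite sense, lower with forskolin (8.59 ± 0.715 against 3.25 ± 0.81) and higher without (9.11 against 13.6; interaction -1.72 ± 0.15).

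Of 19 tested thermogenic genes 11 were called higher and 4 lower. Among the 11, Ucp1 and Irf4 passed the expression filter only through the NFIA libraries and could only come out higher. The interaction was positive and called in 5 of the 19 and negative in 1, with a median of 0.04, beside 10.9% and 9.77% of all genes. Ppargc1a, the coactivator of mitochondrial biogenesis, was at 1.29, 1.29 and 1.27 FPKM in control and 70.3, 65.1 and 66.8 in NFIA libraries (4.90 ± 0.08, adjusted p = 3.7e-16). Without forskolin its means were 0.64 and 4.89 FPKM, and the interaction was 3.06 ± 0.12 (adjusted p = 1.6e-10). Ucp1, the uncoupling protein of brown fat, was listed at 0 in all 3 control libraries and at 2.75, 3.95 and 3.06 FPKM in NFIA libraries (adjusted p = 6.5e-12). Without forskolin Ucp1 was listed at 0 in control cells and at a mean of 0.06 in NFIA cells, and the interaction was 1.99 ± 0.12 on the log2(FPKM + 1) scale. The level of Ucp1 was thus small beside that of Ppargc1a, at 67.4 ± 2.66 FPKM, or of Ucp2, at 62.6 ± 7.97 in control and 1156 ± 165 in NFIA cells.

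Dio2, which makes active thyroid hormone, also had a positive interaction. It was at 18.1, 15.6 and 16.8 FPKM in control and 27.9, 25.0 and 27.0 in NFIA libraries (0.63 ± 0.09, adjusted p = 1e-05). All 3 NFIA values lay above all 3 control values, which 31.5% of all genes tested showed. Without forskolin Dio2 was lower in NFIA cells (means of 13.1 and 2.39 FPKM), which gave an interaction of 2.69 ± 0.12. Irf4, which pairs with Ppargc1a in brown fat, was at 0.01 to 0.03 FPKM in control and 1.14 to 1.41 in NFIA libraries, and at 0.03 and 0.05 without forskolin (interaction 1.11 ± 0.08). Kng2, Elovl3 and Cox8b, other brown fat genes, had higher levels in NFIA cells, but their interactions did not pass the threshold for Kng2 (0.22 ± 0.13) and Elovl3 (-0.23 ± 0.15). The call of Cox8b was lost with a pseudocount of 0.1 (adjusted p = 0.0782). The 4 members called lower were Cox7a1 (80.7 ± 26.7 against 15.9 ± 5.09), Ckmt2, Zic1 and Acot11. Cox7a1 and Ckmt2 are also expressed in muscle. Prdm16, a determinant of brown fat, did not exceed 0.01 FPKM in the 6 libraries, and Cpt1b was not called (-0.08 ± 0.29).

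The genes that make, sense and remove cAMP differed in both directions. Of 7 tested adenylyl cyclases and G protein subunits 3 were called higher and 3 lower. Adcy7, in these libraries the cyclase with the highest FPKM in control cells, was at 38.6, 40.7 and 43.9 FPKM in control and 4.28, 4.02 and 4.29 in NFIA libraries (-3.02 ± 0.06, adjusted p = 5.7e-15). Adcy9, which is known to respond poorly to forskolin, was at 3.15 ± 0.04 against 5.43 ± 0.11, and Adcy6 at 15.5 ± 1.34 against 18.2 ± 1.42. The call of Adcy6 (adjusted p = 0.0389) was lost when control replicate 1 or 2 or NFIA replicate 2 or 3 was left out. Gnas, the stimulatory G protein subunit, was at 623 ± 37.2 and 527 ± 1.58 FPKM and was not called (-0.24 ± 0.14, adjusted p = 0.15), but was called lower with the replicate block (adjusted p = 0.049).

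PKA subunits differed by type. Prkar2b, the regulatory subunit typical of fat cells, was at 26.0, 23.0 and 23.3 FPKM in control and 252, 239 and 252 in NFIA libraries (3.31 ± 0.10). Prkar1a, the widely expressed regulatory subunit, was at 520, 517 and 519 FPKM in control and 201, 223 and 210 in NFIA libraries (-1.29 ± 0.08). The 2 ranges were far apart for both genes. Of all genes tested, 31.5% had every NFIA library above the control libraries and 34.5% had every one below. The catalytic subunits Prkaca (101 ± 7.75 against 72.7 ± 0.68) and Prkacb (26.0 ± 1.45 against 17.6 ± 1.41) were lower. Pkia and Pkig, the inhibitors of the catalytic subunit, were lower by more: Pkig was at 187, 285 and 268 FPKM in control and 36.3, 45.0 and 56.5 in NFIA libraries (-2.40 ± 0.25), and Pkia was at 49.4 ± 4.31 against 8.11 ± 1.74. Among the anchoring proteins that place PKA in the cell, Akap6, known from muscle, was lower (-2.87 ± 0.14). Akap2 was at 13.7 ± 1.74 and 118 ± 14.9 FPKM with forskolin and at 15.2 and 16.2 without (interaction 2.93 ± 0.17, adjusted p = 1.3e-08).

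**Figure D3:**
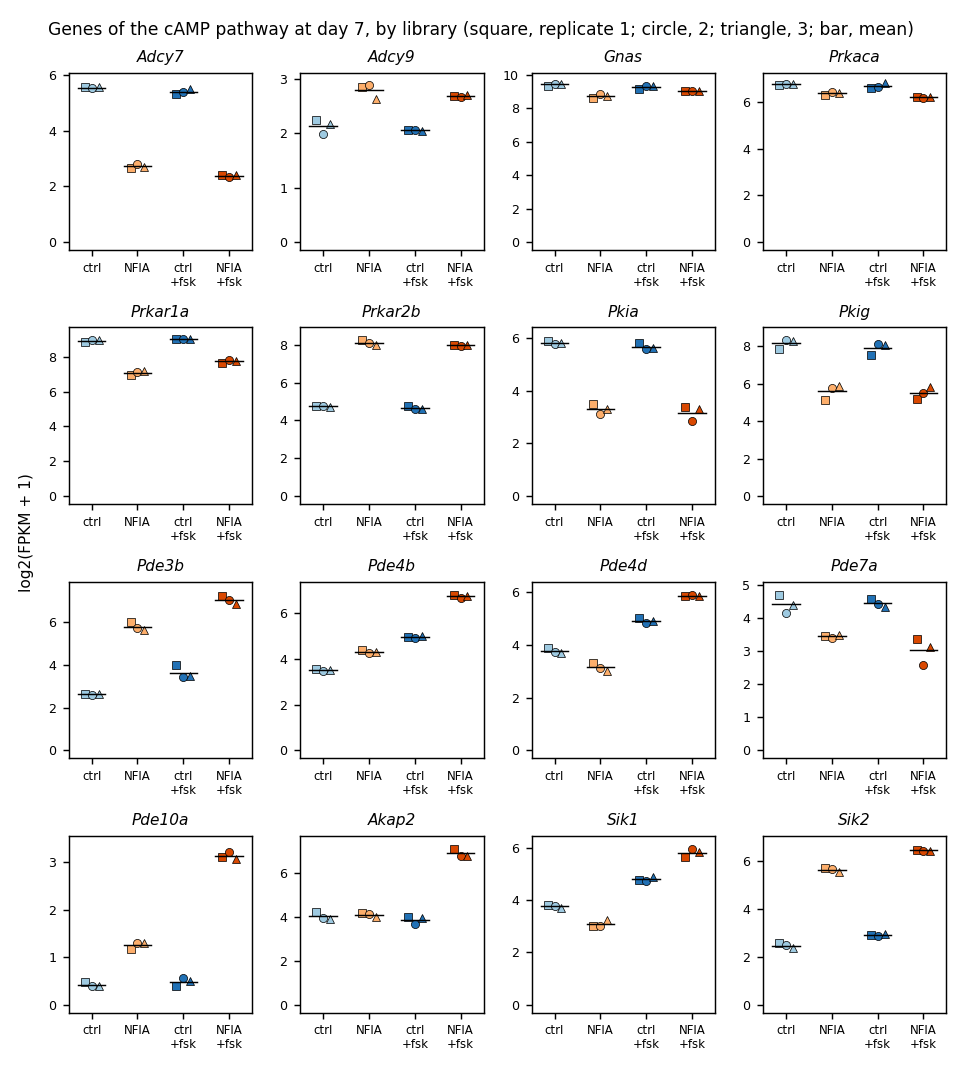
log2(FPKM + 1) of 16 genes of the cAMP pathway in every library of the 4 day 7 groups, drawn as in the plot of fat, thermogenic and muscle genes (symbols, replicates; bar, mean of 3). Adcy7, Prkar1a, Pkia and Pkig are lower and Prkar2b, Pde3b and Sik2 higher in NFIA cells of either treatment, while Pde4b, Pde4d, Pde10a, Akap2 and Sik1 are highest in NFIA cells with forskolin.

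Phosphodiesterases, which hydrolyse cAMP, were called higher in 6 of 9 tested members and lower in 2. Pde3b, the form through which insulin blocks lipolysis in fat cells, was at 15.0, 9.73 and 10.3 FPKM in control and 148, 130 and 113 in NFIA libraries (3.39 ± 0.20). Pde4b, a target of cAMP signalling itself, was at 29.9, 28.5 and 30.4 against 108, 100 and 104 (1.78 ± 0.09, adjusted p = 1.1e-10). Without forskolin the means of Pde4b were 10.3 and 18.8 FPKM, and the interaction was 0.98 ± 0.13. Pde4d, also known to be induced by cAMP, was higher with forskolin (29.1 ± 2.18 against 56.5 ± 1.31) and lower without (12.5 against 7.89), with an interaction of 1.54 ± 0.18. Pde10a and Pde7b had levels of 7.74 ± 0.47 and 7.79 ± 1.13 FPKM in NFIA cells and under 1 in control cells. With control levels under 1 FPKM both could pass the expression filter only with the NFIA libraries, so the filter set their direction. Pde7a and Pde4a were lower (-1.42 ± 0.21 and -1.46 ± 0.16). Pde8a was not called, but was called higher with quantile normalization (0.47, adjusted p = 0.00541).

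Of 14 tested CREB, CRTC and salt-inducible kinase genes 6 were called higher and 3 lower, with differences from -1.85 to 3.54. Creb1 was at 15.2 ± 3.08 and 15.3 ± 5.04 FPKM (difference -0.02 ± 0.22), and Crtc1 was not called either (0.04 ± 0.25). Crtc2 was slightly higher (10.8 ± 0.29 against 14.7 ± 0.21). Crem and Sik1 are known cAMP targets within this circuit, and both had a positive interaction. Crem, whose inducible form represses CREB targets, was at 23.4, 26.6 and 23.2 FPKM in control and 56.0, 65.7 and 72.0 in NFIA libraries (1.36 ± 0.11; interaction 0.92 ± 0.16). Sik1, a salt-inducible kinase, was at 26.9 ± 1.28 against 55.9 ± 6.17 (1.02 ± 0.10; interaction 1.70 ± 0.14). Means without forskolin were 8.58 and 11.9 for Crem and 12.6 and 7.53 for Sik1. Sik2, the form most expressed in fat, was at 6.54 ± 0.28 against 86.3 ± 0.79 FPKM (3.54 ± 0.07).

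Immediate-early genes, which are transcribed within minutes to hours of a signal, were called higher in 30 of 35 tested members and lower in 1, with a median of 2.23. The interaction was positive and called in 25 of the 35 and negative in none, beside 10.9% and 9.77% of all genes. Without forskolin 15 were called higher and 10 lower, with a median of 0.34, beside 26.6% and 29.6% of all genes. Atf3, a stress- and cAMP-responsive repressor, was at 1.81, 1.32 and 1.29 FPKM in control and 674, 711 and 785 in NFIA libraries (8.20 ± 0.11, adjusted p = 4.9e-17). Its means without forskolin were 3.56 and 19.3 FPKM, and its interaction of 6.04 ± 0.16 was the largest of any protein-coding gene tested. The means of Atf3 in control cells were 1.47 FPKM with the compound and 3.56 without, a pair that was not tested.

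The orphan nuclear receptors of the NR4A family, which are textbook CREB targets, were higher in all 3 members. Nr4a1 was at 12, 15.4 and 17.6 FPKM in control and 346, 433 and 458 in NFIA libraries (4.69 ± 0.18; interaction 4.40 ± 0.25, adjusted p = 1.3e-08). Nr4a3 was at 1.10, 0.82 and 1.02 against 218, 177 and 204 (6.66 ± 0.09; interaction 5.97 ± 0.13, adjusted p = 4.7e-13). Nr4a2 was at 8.98, 7.37 and 10.1 against 43.0, 30.2 and 44.1 (2.02 ± 0.13; interaction 2.61 ± 0.19). Without forskolin the means of control and NFIA cells were 6.74 and 8.62 for Nr4a1, 0.30 and 1.10 for Nr4a3 and 2.45 and 1.30 for Nr4a2. Every NFIA library with forskolin lay above every control library for each of the 3 genes, a separation that 31.5% of all genes tested showed, and their order by level was Nr4a1, Nr4a3 and Nr4a2 in NFIA cells.

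The AP-1 genes Fos, Jun, Fosl1 and Junb had differences of 3.52 ± 0.14, 3.20 ± 0.22, 2.23 ± 0.10 and 1.75 ± 0.33. Fos was at 2.17, 3.30 and 2.15 FPKM in control and 32.4, 45.8 and 40.4 in NFIA libraries. Egr1, a zinc finger factor, was at 9.52 ± 0.44 against 94.8 ± 7.91 with forskolin and at 28.7 against 18.4 without (interaction 3.80 ± 0.12). Btg2 and Maff, whose windows hold a full CRE, were at 14.4 ± 1.75 against 155 ± 17.9 and at 14.9 ± 2.11 against 84.3 ± 13.7 FPKM (3.34 ± 0.15 and 2.42 ± 0.14). Zfp36, which binds and destabilises short-lived mRNAs, was at 6.14 ± 1.06 against 204 ± 38.5, and Gadd45g, a growth arrest gene, at 38.0 ± 12.6 against 697 ± 230. Myc, which drives growth, was at 8.31 ± 0.64 against 73.5 ± 6.63 FPKM.

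Without control replicate 1 the members called lower numbered 2, and with all libraries the 1 member called lower was Egr3, at 13.1, 14.5 and 13.9 FPKM in control and 0.88, 0.61 and 1.06 in NFIA libraries (-3.01 ± 0.14), with a similar difference without forskolin (-3.36). Jund, Ier3, Gadd45a and Gadd45b were not called. With the replicate block all 4 were called, Jund higher (adjusted p = 5.88e-06) and Gadd45a, Ier3 and Gadd45b lower (adjusted p = 6.61e-05, 0.00142 and 0.00892), which made 4 members lower in all. Ier3 was at 114 ± 21.6 and 91.9 ± 21.9 FPKM with forskolin and at 77.8 and 9.29 without, so its interaction was called (2.63 ± 0.33) although its difference with forskolin was not. For Cebpb, a factor early in fat cell formation, the libraries spread widely: 9.87, 20.3 and 29.1 FPKM in control and 64.5, 177 and 235 in NFIA libraries (2.87 ± 0.64, adjusted p = 0.0011), replicate 1 being the lowest in both groups.

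**Figure D4:**
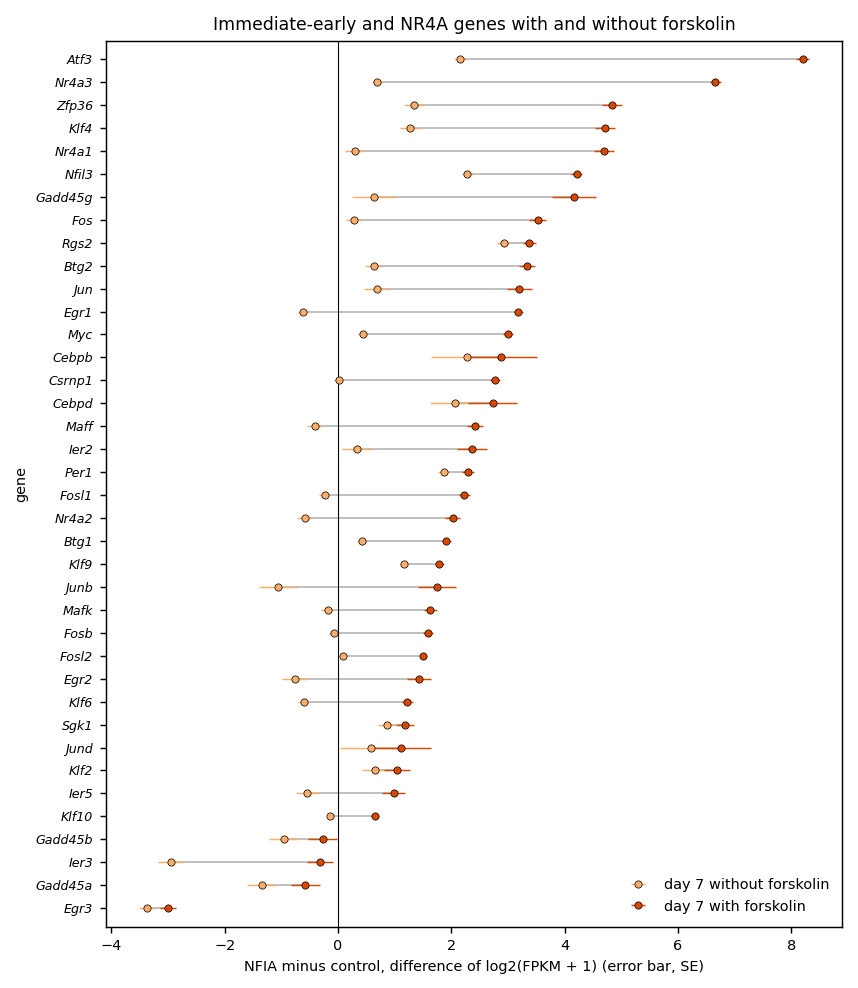
Difference between NFIA and control cells (NFIA minus control, log2(FPKM + 1); error bar, SE) for the 35 tested immediate-early genes and 3 NR4A genes, at day 7 without (light) and with forskolin (dark), ordered by the latter. Atf3 and Nr4a3 have the longest distance between the points, 6.04 and 5.97, and Egr3 is below 0 in both.

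Phosphatases that end MAP kinase signalling were split, with 7 of 15 tested called higher and 7 lower. Dusp4 was at 5.55, 5.96 and 5.79 FPKM in control and 194, 222 and 233 in NFIA libraries (5.0 ± 0.07; interaction 3.24 ± 0.11). Dusp1, which acts on JNK and p38, was at 17.4 ± 3.16 against 214 ± 42.0 (3.54 ± 0.19; interaction 2.55 ± 0.27). Dusp27, a member expressed in muscle, and Dusp18 were lower (-2.52 ± 0.08 and -1.79 ± 0.06). Among clock genes 12 of 18 were called higher and 5 lower. Nfil3, at 18.5 ± 1.96 against 359 ± 34.0 FPKM, and Per1 and Per2, which cAMP can induce, were higher (Per1 15.4, 16.0 and 19.8 against 83.0, 88.1 and 90.6). Dbp, Per3 and Bhlhe41 were lower, Bhlhe41 at 36.4 ± 2.78 against 5.08 ± 1.26 with forskolin and 30.0 against 13.7 without (interaction -1.56 ± 0.21).

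Ligands that pass signals to other cells differed in both directions. Areg and Ereg, ligands of the EGF receptor, had means of 13.7 ± 3.63 and 22.3 ± 2.39 FPKM in NFIA cells with forskolin and of 0.61 ± 0.32 and 2.81 ± 0.45 in control cells. Without forskolin the means in NFIA cells were 1.38 and 1.63, and both interactions were called (2.89 ± 0.29 and 2.97 ± 0.18). Hbegf, another ligand, was lower (7.56 ± 0.89 against 4.74 ± 0.41), as was the receptor Erbb3 (9.79 ± 0.15 against 0.46 ± 0.19). Il6, a cytokine that cAMP can raise, was at 2.43, 1.85 and 2.44 against 3.23, 3.33 and 2.89 FPKM, a small difference of 0.36 ± 0.10 (adjusted p = 0.0073). Cyr61, a matrix-bound signalling protein, was at 26.6 ± 4.54 against 256 ± 38.3 with forskolin and at 94.1 against 15.5 without, an interaction of 5.75 ± 0.23. Thbs1 turned in the same way (66.4 ± 4.54 against 148 ± 4.01 with, 208 against 37.4 without; interaction 3.59 ± 0.15). Of 12 tested prostaglandin genes 9 were called lower. Ptgs2, the inducible cyclooxygenase, was slightly lower with forskolin (8.86 ± 0.16 against 6.80 ± 0.42) and much lower without (9.85 against 0.85; interaction 2.21 ± 0.12). Its call under forskolin was lost with quantile normalization (adjusted p = 0.0841).

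Stress genes differed as well. Of 22 tested targets and partners of Atf4 in the integrated stress and unfolded protein responses 16 were called higher and 2 lower, with 12 positive and 0 negative interactions, beside 10.9% and 9.77% of all genes. Atf4 itself was at 127, 173 and 174 FPKM in control and 734, 990 and 976 in NFIA libraries (2.51 ± 0.19; interaction 1.96 ± 0.27). Trib3, a pseudokinase induced by Atf4, was at 3.98 ± 1.20 against 48.6 ± 10.4. Of 30 tested heat shock genes 16 were higher and 10 lower. The inducible chaperones led: Hspa1b was at 5.61, 7.59 and 8.30 FPKM in control and 186, 304 and 316 in NFIA libraries (5.02 ± 0.24; interaction 4.33 ± 0.34), Dnajb1 at 22.4 ± 3.14 against 168 ± 23.6, and Hsph1 at 49.8 ± 4.27 against 443 ± 27.5. The chaperones called lower included the muscle forms Hspb2, Hspb3 and Hspb7 (-3.23 ± 0.27, -3.03 ± 0.17 and -2.59 ± 0.15). Hspa1b has a near-identical copy, Hspa1a, which was listed at 0.56 to 2.50 FPKM, and how reads were split between them is not known.

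Muscle genes were lower in NFIA cells. All 43 tested sarcomere genes were called lower, with a median of -2.89 with forskolin and -2.92 without, beside 33.3% of all genes. The interaction was called in 3 of the 43. In the control libraries the muscle markers were high: Acta1 was at 1891, 2413 and 2641 FPKM, Ckm at 212, 287 and 288, and Myh3 at 414, 309 and 318. In NFIA libraries Acta1 was at 507, 616 and 711, Ckm at 20.9, 28.7 and 34.2, and Myh3 at 78.9, 68.2 and 69.1, so muscle transcripts were reduced and not absent. The differences were -1.92 ± 0.17, -3.20 ± 0.19 and -2.24 ± 0.13. Myl4, the embryonic myosin light chain, and Tcap, which caps titin, had the largest differences of the list (-5.06 ± 0.27 and -5.02 ± 0.31).

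Of 15 tested myogenic factors 13 were called lower and none higher. Mef2c was at 82.1, 64.7 and 62.2 FPKM in control and 2.34, 1.77 and 3.11 in NFIA libraries (-4.38 ± 0.14). Myog, which starts terminal differentiation, was at 453, 660 and 695 against 112, 153 and 169 (-2.04 ± 0.24). Myod1, the determination factor, differed least of the myogenic regulators, at 27.6, 34.4 and 38.7 against 16.6, 17.9 and 20.3 (-0.83 ± 0.21, adjusted p = 0.0031). Myf5 and Myf6 were lower (-2.17 ± 0.08 and -4.14 ± 0.15). Mef2d was not called with forskolin (37.2 ± 2.16 and 41.6 ± 7.31 FPKM), was lower without (38.4 and 20.4) and had an interaction of 1.03 ± 0.20. With the libraries of the later date alone Mef2d was called higher under forskolin (adjusted p = 0.0475). Of 20 tested genes of excitation-contraction coupling 18 were lower. The 2 higher were Sln, an inhibitor of the calcium pump (0.10 ± 0.03 against 9.72 ± 3.12 FPKM), and Atp2a2, the pump of slow muscle and other tissues (83.3 ± 4.68 against 179 ± 4.11; interaction 1.29 ± 0.13). Atp2a1, the pump of fast muscle, was at 708 ± 132 against 124 ± 38.8. At the neuromuscular junction 10 of 13 were lower, Chrna1, an acetylcholine receptor subunit, among them (-2.84 ± 0.13), and Colq was higher (1.45 ± 0.09).

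**Figure D5:**
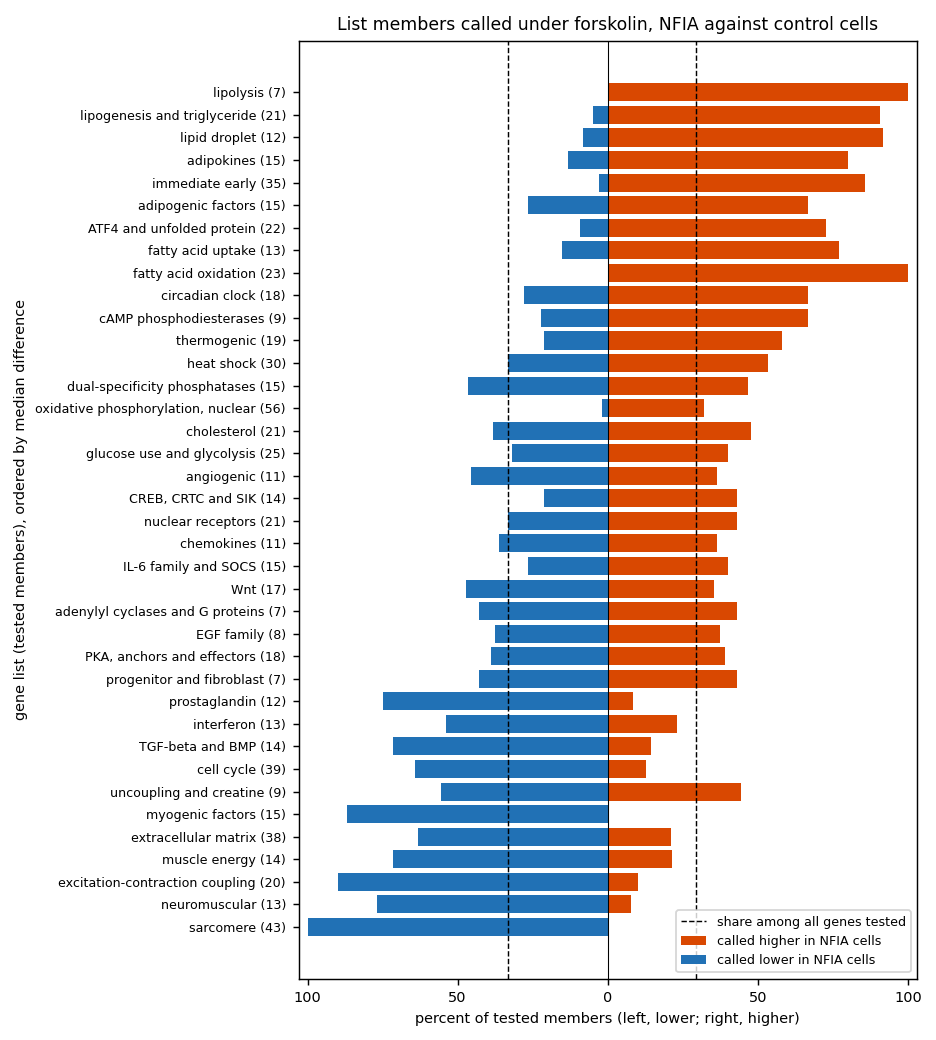
Percent of the tested members of each list called higher (right, orange) or lower (left, blue) in NFIA cells under forskolin; lists with at least 7 tested members, ordered by median difference, with the number tested in brackets. The dashed lines mark the share among all 13496 genes (29.5% higher, 33.3% lower); lipolysis and fatty acid oxidation are at 100% higher and sarcomere genes at 100% lower.

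Extracellular matrix genes were called lower in 24 of 38 tested members and higher in 8, with a median of -1.56. Col1a1 was at 565, 534 and 635 FPKM in control and 14.3, 12.1 and 17.8 in NFIA libraries (-5.21 ± 0.15), and Col3a1, the other main fibrillar collagen of loose tissue, at 1799 ± 136 against 113 ± 4.22. Of the basement membrane collagens in the list, Col4a1 was at 53.9 ± 4.93 against 258 ± 13.0, Col4a2 at 59.5 ± 3.82 against 126 ± 5.22 and Col15a1 at 0.74 ± 0.19 against 37.7 ± 3.78, all called higher. Col18a1 was not called (16.9 ± 1.11 and 16.1 ± 1.66). Of 39 tested cell cycle genes 25 were lower and 5 higher. Ccnb1, the mitotic cyclin, was at 36.3 ± 1.73 against 11.3 ± 0.62, whereas Ccnd2 was at 0.79 ± 0.20 against 12.7 ± 2.40 and Pcna, the replication clamp, at 38.5 ± 3.94 against 85.9 ± 8.91.

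Glucose genes differed in both directions (10 of 25 higher, 8 lower), beside 29.5% higher and 33.3% lower of all genes. Ppp1r3c, which targets a phosphatase to glycogen, was at 2.80 ± 0.07 against 94.8 ± 3.38 FPKM, and Slc16a1, a lactate and pyruvate carrier, at 22.5 ± 2.23 against 384 ± 27.1 with forskolin and 18.6 against 50.2 without (interaction 2.66 ± 0.17). Slc2a1, the widely expressed glucose carrier, was higher with forskolin (89.4 ± 14.2 against 150 ± 23.5) and lower without (65.7 against 38.5; interaction 1.49 ± 0.26). Slc2a4, the insulin-responsive carrier, was low in both groups (2.24 ± 0.60 and 3.21 ± 0.41). Among cholesterol genes Insig1, which retains the regulator of their synthesis, was higher (24.7 ± 0.84 against 337 ± 14.2) and Srebf2 was lower (57.7 ± 5.5 against 21.7 ± 1.67). Vdr, the vitamin D receptor, was at 82.1, 117 and 120 against 520, 661 and 698 FPKM (2.56 ± 0.17). Its means without forskolin were 14.3 and 43.3 (interaction 1.04 ± 0.24).

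Across all genes, 2794 had an NFIA difference with forskolin unlike that without (20.7%), 1475 with a positive interaction and 1319 with a negative one. With the libraries of the later date alone the count was 4614, and with the replicate block it was 4953. After Atf3 and Nr4a3, the largest positive interactions at 5 FPKM or more were those of Cyr61, Fgl2 (5.05 ± 0.11), Nr4a1, Hspa1b, Alpl (4.19 ± 0.35) and Ptp4a1 (4.04 ± 0.22). Fgl2, a secreted fibrinogen-like protein, was at 0.45 ± 0.09 FPKM in control and 40.6 ± 1.37 in NFIA cells with forskolin, and at 0.21 and 0.05 without. Alpl, an alkaline phosphatase, was at 0.08 ± 0.05 against 158 ± 33.1 with forskolin and 0.01 against 7.63 without. Ptp4a1, a tyrosine phosphatase, was at 9.54 ± 1.38 against 370 ± 19.8. Among called interactions at 5 FPKM or more, the largest negative ones were smaller, and belonged to Bmf (-2.44 ± 0.36), Cachd1 (-2.24 ± 0.26) and G0s2. Bmf, a pro-apoptotic protein, was at 6.75 ± 1.22 against 0.85 ± 0.57 FPKM with forskolin and 5.08 against 6.78 without. Mxd4, an antagonist of Myc, was at 27.6 ± 2.55 against 19.0 ± 0.59 with forskolin and 31.2 against 70.4 without (interaction -1.65 ± 0.19).

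Besides Fabp4, Nfia, Rbp4, Lcn2 and Atf3, the 10 highest were Cyp2e1, C3, S100a8, Clec3b and Gsta3, with NFIA means of 1102, 635, 474, 346 and 299 FPKM and control means of 0.13 or less. Cyp2e1 is a cytochrome P450 found in liver and fat, and C3 is the central complement protein. Of these 5 genes S100a8, a calcium-binding protein, had an interaction past the threshold (1.35 ± 0.23, adjusted p = 0.00065), lost with a pseudocount of 0.1 (adjusted p = 0.336). Besides Col1a1, Myl4 and Tcap, the 10 lowest were Alox5ap, Tceal7, Enpp1, Dhrs7c, Spon2, Cav3 and Pdgfrl. Enpp1, which makes pyrophosphate, was at 104, 93.0 and 99.9 FPKM in control and 2.29, 1.68 and 1.57 in NFIA libraries, and Cav3, the muscle caveolin, at 82.7 ± 15.8 against 2.25 ± 1.20. Alox5ap, of leukotriene synthesis, spread most (290, 645 and 315 against 24.3, 2.68 and 2.85 FPKM; -5.78 ± 0.76).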

How the data were processed

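Polyadenylated RNA of the C2C12 cells was sequenced with stranded libraries, per the labels' protocols. The deposited values are FPKM per gene, and the submitters' processing notes name TopHat, Cufflinks and the mm9 build. Settings and annotation are not stated there. Entries of the same symbol at overlapping positions were summed (264 of 37305 entries merged away). Genes with at least 1 FPKM in at least 3 of the 6 forskolin libraries were kept. log2(FPKM + 1) was fitted with limma 3.58.1 in R 4.3.3 over all 18 C2C12 libraries, as 6 groups of 3 that share 1 estimate of the spread, with an intensity trend. P-values were adjusted by Benjamini-Hochberg over the 13496 genes. The interaction is the NFIA difference with forskolin minus that at day 7 without it. The fitting script was tested on simulated data. Replicate 1 of each group carries no number in its title but shares a header date across groups, and deviations from the group means correlated at 0.493, 0.225 and 0.346 between same-numbered libraries. The fit with the replicate number as a block is therefore given beside results whose call it changes. The 46 gene lists and the genes compared were chosen with earlier results of these data known. Genes named are drawn from key genes, the called members of each list with the largest differences or highest levels, the 10 largest differences in each direction, the 8 largest interactions in each direction, and members whose role was not otherwise shown. Alternatives were other pseudocounts, filters, scalings, models and leaving out each library. The header date as a term, and the share counted per promoter window, were chosen after seeing the data. Some results are not reported here.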

Additional observations from a re-analysis of the deposited data

Results flagged for a closer look

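The NFIA difference at day 7 was unlike with and without forskolin, by the test of that difference, in 2794 genes. Of these, 135 were called higher with forskolin and lower without it, and 117 lower with and higher without. Among the genes named above, 15 were called in opposite directions. The interactions on the log2(FPKM + 1) scale were 5.75 for Cyr61, 5.05 for Fgl2, 3.80 for Egr1, 3.59 for Thbs1 and 2.97 for Ereg. They were 2.83 for Maff, 2.81 for Junb, 2.69 for Dio2, 2.66 for Fgf21 and 2.61 for Nr4a2. For Sik1, Pde4d and Slc2a1 they were 1.70, 1.54 and 1.49. Apln and Mxd4 were lower with forskolin and higher without, with interactions of -1.72 and -1.65. Both sets of groups hold 3 libraries each, and no explanation was tested.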

How the results depend on the processing

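Of the 24 alternative settings 18 bear on the forskolin comparison, and in these the number of genes called stayed within 1.5 times the main count except where a log2 difference of at least 1 was also asked. That setting gave 3684 genes (1627 higher, 2057 lower) under forskolin, 3096 (1240 and 1856) without, 647 interactions (485 positive, 162 negative) and 196 list members called higher. Leaving out 1 library at a time gave 7928 to 8277 genes under forskolin, 6914 to 7271 without and 2304 to 2768 interactions. The replicate block gave 9941 genes under forskolin and 4953 interactions (2529 positive, 2424 negative). The numbered libraries alone gave 4614 (2446 and 2168), and the header date as a term 5038 (2567 and 2471). The cause was not tested. Control 1 correlated best with NFIA 1 and control 3 with NFIA 3, but control 2 slightly better with NFIA 3 (0.243) than with NFIA 2 (0.225). Gadd45a, Gadd45b, Gnas, Ier3 and Jund, not called in the main fit, were called with the block and with the header date. Signs turned for genes that the main fit did not call. With quantile normalization Cpt1b was at 0.26 and Mef2d at -0.0308, with median-of-ratios rescaling Creb1 at 0.0151, and with a pseudocount of 0.1 the interaction of Elovl3 at 0.0082. Leaving out 1 library put Cpt1b at -0.424 to 0.104, Col18a1 at -0.1109 to 0.0185, Creb1 at -0.249 to 0.202, Crtc1 at -0.379 to 0.325 and Scd1 at -0.998 to 5.46. The share of genes called higher with a full CRE was 4.52% per gene and 3.71% per promoter window. Read depth is unknown, so no counting error can be given.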
